A study of Mus musculus with 12 samples.

Results

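The genes described here encode lysosomal proteases, other lysosomal hydrolases and membrane proteins, and subunits of the proton pump that acidifies the lysosome, the V-ATPase. A fixed list of 33 genes was used, and a gene was taken where the platform's probe table paired a probe set with exactly 1 symbol and that symbol was on the list. All 33 genes were found, each with 1 probe set, among 21789 probe sets with exactly 1 symbol that stood for 19938 genes. The list held 9 cysteine cathepsins, 2 other cathepsins, 6 glycosidases, 4 proteins of lipid handling, 4 membrane proteins, 7 V-ATPase subunits and 1 transcription factor. The rule names the genes and uses no measured value, but the list was drawn up with earlier results of these data known.

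The 12 arrays (Affymetrix Mouse Gene 1.0 ST) measured total RNA of primary hepatocytes, the parenchymal cells of the liver, isolated by the collagenase method from male C57BL/6 mice of an age that is not stated. The cells grew on collagen in a serum-free hepatocyte medium, which was replaced 1 h before stimulation in all groups. One group of 3 arrays was left untreated and was taken as time point 0, and 3 groups of 3 arrays each received 1 ng/ml recombinant human TGF-β1, a cytokine that acts through Smad proteins, for 20 min, 2 h or 4 h. There was no untreated culture at a later time, so time since the medium change and treatment cannot be told apart.

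Lysosomes digest proteins, glycans and lipids that arrive by endocytosis and autophagy. Most of their soluble enzymes are made as precursors and become active in the acid interior that the V-ATPase maintains by pumping protons. Many lysosomal genes carry a shared promoter element, an E-box variant bound by TFEB and its relatives, which raise lysosomal and autophagy genes during starvation. Hepatocytes are rich in lysosomes, and the liver's resident macrophages, the Kupffer cells, also express cathepsins strongly, above all cathepsin S.

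The authors deposited log2 signal values made with RMA, which background-corrects, quantile-normalizes and summarises probes. Array medians lay between 6.82 and 6.93, and no arrays held identical values. Of the 33 genes, 30 lay at or above the median signal of all tested probe sets, 7.23, and Ctsk, Ctss and Atp6v0d2 lay below it. All 16 measured markers of hepatocytes were at or above that median, against 8 of 22 macrophage markers, 5 of 8 sinusoidal endothelial markers, 3 of 8 stellate cell markers and 1 of 4 cholangiocyte markers. Brightness depends on the probes as well as on the RNA, so no level of 1 gene is set against that of another. These counts describe signal relative to that median and are not calls of detection. In bulk RNA, fewer cells of a type and less RNA per cell cannot be told apart.

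At 4 h, 4 of the 33 lysosomal genes fell and 0 rose against untreated cells in limma's fit with time and replicate number as factors (adjusted p under 0.05 over all tested probe sets). These were Ctso, Ctsh, Npc1 and Atp6v0d2, with log2 changes between -0.44 and -0.29. With the replicate number as a random effect in place of a factor, only Ctso stayed past the threshold (adjusted p = 0.0178), and the values were 0.214 for Ctsh, 0.0579 for Npc1 and 0.433 for Atp6v0d2. Without any replicate term, limma called none of the 4. Over all tested probe sets 3.02% were called lower and 1.57% higher, and among the probe sets at or above the median signal, where 30 of the members lie, 5.43% were called lower. No member met an adjusted p under 0.01 together with a 2-fold change, as 0.0964% of all probe sets did. The unadjusted p was under 0.05 for 16 members, 15 of them lower and 1, Tfeb, higher, against 17% of all probe sets and 27.6% of those at or above the median signal, in either direction.

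The members as a group lay slightly below their untreated level. The median log2 change over the 33 genes at 4 h was -0.14, against 0.02 over all tested probe sets and 0.00 over the probe sets at or above the median signal. The change was below 0 for 29 members, and 22 were lower in all 3 replicates (66.7%, against 17.4% of all probe sets and 24.9% of those at or above the median signal). The same was so for 12 of 16 hepatocyte markers (75%) and for 26 of 72 other lysosomal genes (36.1%). By replicate number, the medians were -0.18, -0.07 and -0.11 for numbers 1, 2 and 3. For 8 members every 4 h array lay below every untreated array (Ctso, Ctss, Ctsd, Hexa, Npc1, Npc2, Atp6v1a and Atp6v1b2), as it did for 5.58% of all probe sets. It did so for 869 of the 10895 probe sets at or above the median signal. The count was 4 of 16 for the hepatocyte markers and 11 of 22 for the macrophage markers.

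**Figure D1:**
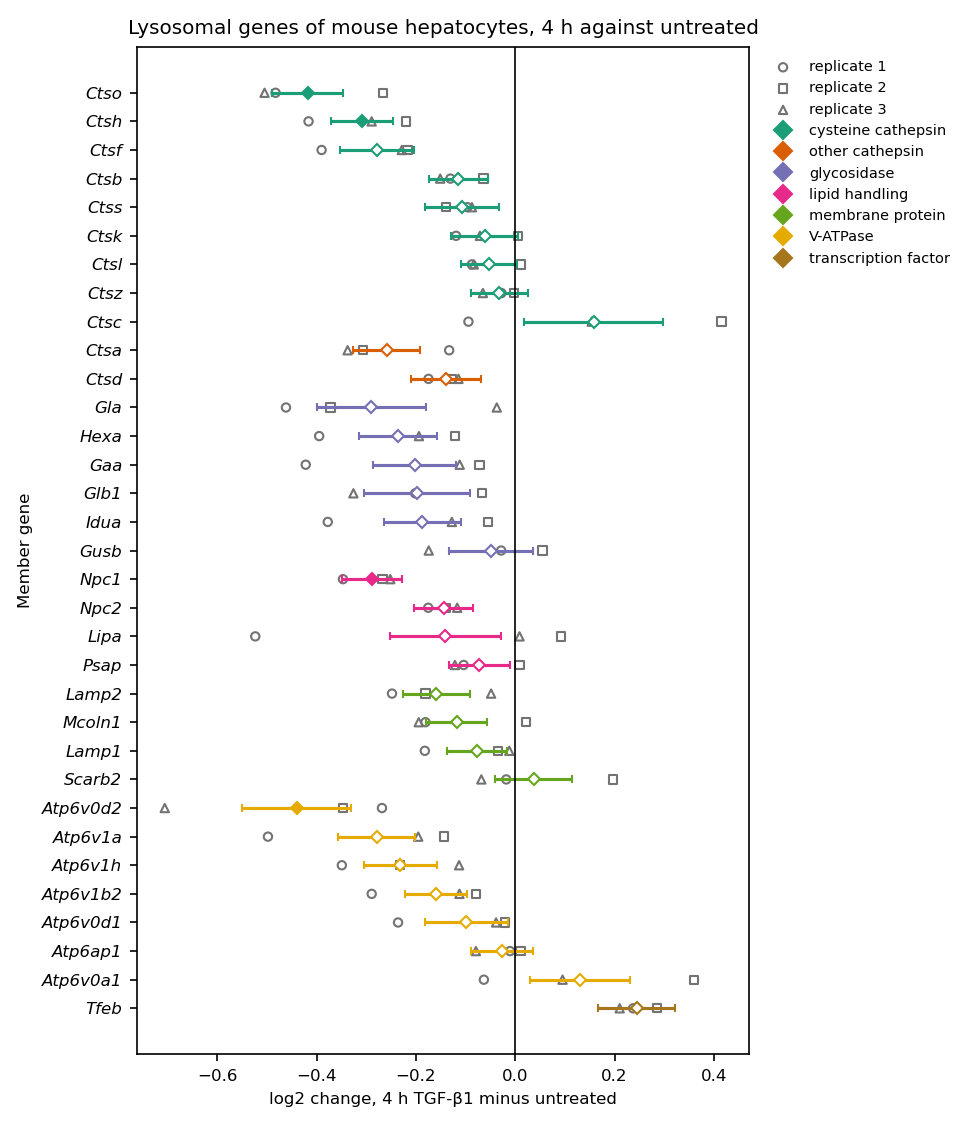
Log2 change from untreated to 4 h TGF-β1 for the 33 genes, grouped by role; open grey symbols give the difference in each replicate, diamonds with bars the limma estimate ± SE, and filled diamonds mark adjusted p under 0.05. Most estimates lie left of 0, 4 are filled, and Tfeb at the bottom has all 3 replicates right of 0.

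Among the 9 cysteine cathepsins, the papain-like proteases that carry out much of lysosomal proteolysis, Ctso and Ctsh fell at 4 h and the other 7 did not pass the test. The median change of the 9 was -0.11, and 6 were lower in all 3 replicates.

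Cathepsin O (Ctso, chr3:81932601-81956725 in GRCm38.p6) read 10.19, 9.99 and 10.05 on the log2 scale in untreated replicates 1, 2 and 3. It read 9.83, 9.82 and 9.84 at 20 min and 10.05, 9.86 and 9.77 at 2 h. At 4 h it read 9.71, 9.73 and 9.55. The 20 min and the 4 h arrays all lay below the lowest untreated array, whereas the 2 h arrays overlapped with them. The limma change at 4 h was -0.42 ± 0.07 (SE, n = 3 pairs, 95% interval -0.57 to -0.26, adjusted p = 0.00866), the smallest adjusted p among the members. Without replicate 2 the limma change was -0.49 with adjusted p = 0.0637, without replicate 3 it was -0.37 with adjusted p = 0.171, and without the 4 h array of replicate 3 it was -0.38 with adjusted p = 0.0558.

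Cathepsin H (Ctsh, chr9:90054267-90076095) is an aminopeptidase as well as an endopeptidase. Its log2 signal was 10.72, 10.28 and 10.26 in untreated replicates 1 to 3, and 10.46, 10.07 and 10.12 at 20 min. It was 10.59, 10.12 and 10.11 at 2 h, and 10.31, 10.06 and 9.97 at 4 h. Replicate 1 was the highest at each time, so its 4 h array lay above the other untreated arrays, and the groups overlapped although each replicate was lower at 4 h. The limma change at 4 h was -0.31 ± 0.06 (SE, n = 3 pairs, adjusted p = 0.0186). Leaving out any 1 replicate number ended the call (adjusted p from 0.0797 to 0.214 in limma). So did leaving out any 1 untreated or 4 h array (adjusted p from 0.0538 to 0.0832) except the 4 h array of replicate 2 (adjusted p = 0.0378).

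The remaining cathepsins of this class moved less or less evenly. Ctsf, a lysosomal endopeptidase, had a log2 change of -0.28 ± 0.08 at 4 h (limma, adjusted p = 0.0626), was lower in 3 of 3 replicates and was called in 2 of 19 alternative analyses. Ctsb and Ctsl, the general lysosomal endopeptidases, had changes of -0.12 ± 0.06 and -0.05 ± 0.06. Ctsl was among the steadiest members, with an SD between replicates of 0.01 to 0.05 at each time. The values of Ctsc, Ctsk, Ctss and Ctsz are given with the macrophage-rich genes.

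Of the 2 cathepsins of other catalytic classes, neither passed the test. Cathepsin D (Ctsd, chr7:142375910-142387827) is the main aspartic protease of the lysosome. It read 12.30, 12.17 and 12.16 in untreated replicates 1 to 3, 12.15, 11.99 and 11.96 at 20 min, 12.22, 12.04 and 11.80 at 2 h, and 12.12, 12.04 and 12.05 at 4 h. Each treated array was lower than its own untreated array, and no 20 min or 4 h array reached an untreated one. The limma changes were -0.18 ± 0.07 at 20 min (adjusted p = 0.544), -0.19 ± 0.07 at 2 h (adjusted p = 0.638) and -0.14 ± 0.07 at 4 h (adjusted p = 0.351). Ctsa, a serine carboxypeptidase that also protects β-galactosidase and neuraminidase from degradation, had a log2 change of -0.26 ± 0.07 at 4 h (limma, adjusted p = 0.0521) and was lower in 3 of 3 replicates at all 3 times. It lay just outside the threshold and was called lower in 6 of 19 alternative analyses.

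None of the 6 glycosidases, which remove sugars from glycogen, glycolipids and glycosaminoglycans, passed the test at 4 h. All 6 estimates were below 0, with a median of -0.20, and 5 genes were lower in 3 of 3 replicates. Gla, which removes terminal α-galactose from glycolipids, had a change of -0.29 ± 0.11 and replicate differences of -0.46, -0.37 and -0.04. Hexa, the α-subunit of β-hexosaminidase, had a change of -0.24 ± 0.08 at 4 h after -0.29 ± 0.08 at 2 h. Gaa (acid α-glucosidase, which degrades glycogen), Glb1 (β-galactosidase) and Idua (α-L-iduronidase) had changes of -0.20, -0.20 and -0.19. Gusb, β-glucuronidase, had the smallest estimate at -0.05 ± 0.08. The difference was most negative in replicate 1 for Gaa, Gla, Hexa and Idua.

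Of the 4 genes of lipid handling, Npc1 fell and the other 3 did not pass. Npc1 (chr18:12189694-12236506) is the membrane transporter that exports cholesterol from the lysosome. It read 12.24, 12.41 and 12.38 in untreated replicates 1 to 3 and 12.03, 12.26 and 12.20 at 20 min. It read 12.16, 12.19 and 12.21 at 2 h and 11.89, 12.14 and 12.13 at 4 h. All 2 h and all 4 h arrays lay below the lowest untreated array. The limma change at 4 h was -0.29 ± 0.06 (SE, n = 3 pairs, adjusted p = 0.0218), and the 3 replicate differences, -0.35, -0.27 and -0.25, were close to each other. Without 1 replicate number the limma adjusted p was between 0.0668 and 0.225, with changes from -0.31 to -0.26, and without any 1 untreated or 4 h array it was between 0.0641 and 0.0946.

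Npc2, the soluble partner that hands cholesterol to Npc1, had a log2 change of -0.14 ± 0.06 at 4 h with no overlap between the groups (limma, adjusted p = 0.231). Psap, the precursor of the saposins that assist sphingolipid hydrolases, had a change of -0.07 ± 0.06. Lipa, the acid lipase that hydrolyses cholesteryl esters and triglycerides, had a change of -0.14 ± 0.11 that rested on replicate 1. Its replicate differences were -0.52, 0.09 and 0.01.

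None of the 4 membrane proteins passed the test, and their median log2 change at 4 h was -0.10. Lamp1 (chr8:13159161-13175338), an abundant glycoprotein of the lysosomal membrane, read 12.87, 12.38 and 12.33 in untreated replicates 1 to 3 and 12.80, 12.28 and 12.28 at 20 min. It read 12.86, 12.32 and 12.30 at 2 h and 12.69, 12.34 and 12.32 at 4 h. Replicate 1 stood above the others at every time by more than any difference between times. The limma change at 4 h was -0.08 ± 0.06 (95% interval -0.21 to 0.06, adjusted p = 0.599). Lamp2, which also serves chaperone-mediated autophagy, had a change of -0.16 ± 0.07, Mcoln1, a calcium-releasing channel, -0.12 ± 0.06, and Scarb2, the receptor that delivers glucocerebrosidase, 0.04 ± 0.08.

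Of the 7 V-ATPase subunits, only Atp6v0d2 fell at 4 h, and 5 were lower in 3 of 3 replicates. Atp6v0d2 (chr4:19876838-19922566) is the d2 form of the subunit that joins the membrane sector of the pump to its stalk, known from osteoclasts and macrophages. It read 6.51, 7.37 and 7.71 in untreated replicates 1 to 3 and 6.36, 6.95 and 7.18 at 20 min. It read 6.44, 7.34 and 7.06 at 2 h and 6.24, 7.03 and 7.002 at 4 h. Replicate 1 was lowest at each time, and the groups overlapped, since the spread between replicates exceeded the change. The limma change at 4 h was -0.44 ± 0.11 (SE, n = 3 pairs, adjusted p = 0.0441), with replicate differences of -0.27, -0.35 and -0.71. Without replicate 3 it was -0.31 with adjusted p = 0.268, without replicate 2 -0.49 with adjusted p = 0.132, and without replicate 1 -0.53 with adjusted p = 0.0533. Without any 1 untreated or 4 h array the limma adjusted p was between 0.089 and 0.173, except without the untreated array of replicate 1 (adjusted p = 0.0396).

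Atp6v0d1, the widely expressed d1 form of the same subunit, had a log2 change of -0.10 ± 0.08 at 4 h. In the sector that hydrolyses ATP, Atp6v1a (the catalytic A subunit) had a change of -0.28 ± 0.08 (limma, adjusted p = 0.0712), Atp6v1h (a regulatory subunit) -0.23 ± 0.07 (limma, adjusted p = 0.112) and Atp6v1b2 (a B subunit) -0.16 ± 0.06 (limma, adjusted p = 0.207). All 3 were lower in every replicate. The accessory protein Atp6ap1 had a change of -0.03 ± 0.06. The membrane subunit Atp6v0a1 had a change of 0.13 ± 0.10, with replicate differences of -0.06, 0.36 and 0.10.

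**Figure D2:**
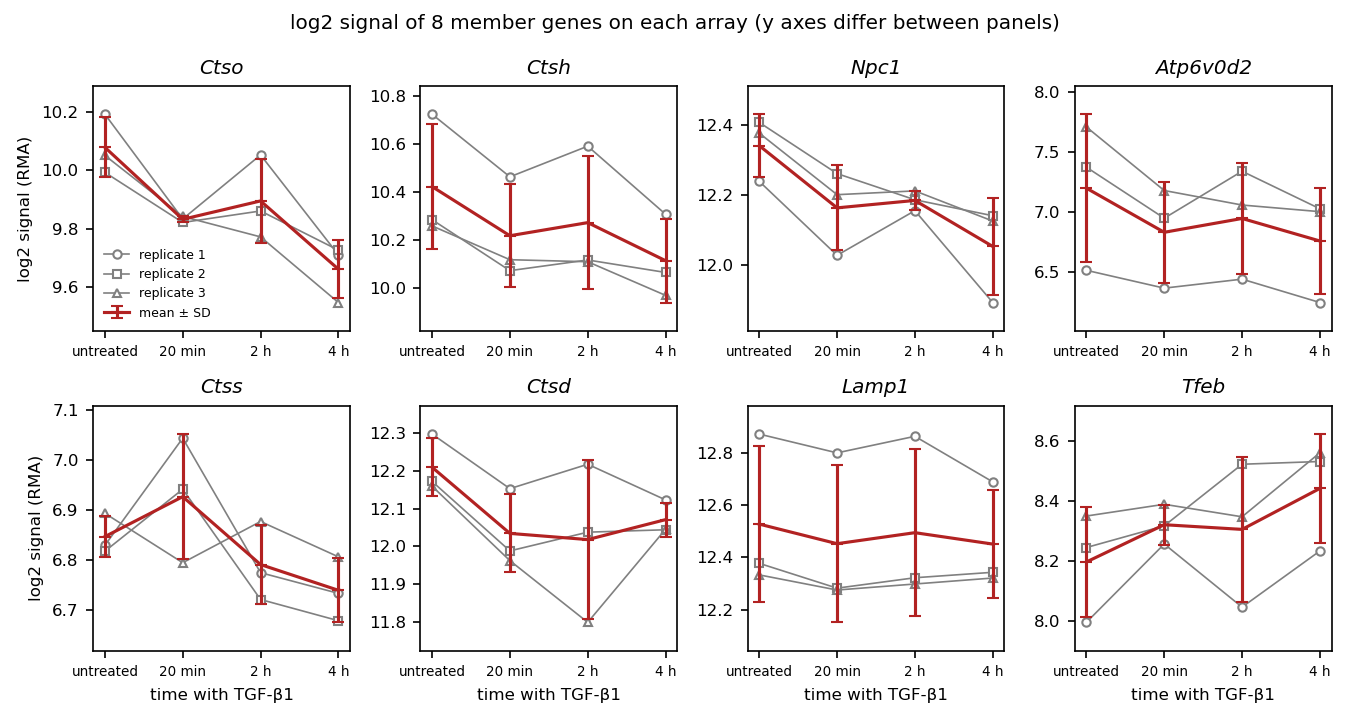
Log2 signal (y axis, RMA values) of 8 genes against time with TGF-β1; grey symbols joined by lines are the 3 replicates, red marks are the mean ± SD of 3 arrays, and the y axes differ between panels. Ctso and Npc1 at 4 h lie below all untreated arrays, replicate 1 stands apart for Ctsh, Atp6v0d2 and Lamp1, and Tfeb is higher at 4 h in each replicate.

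Tfeb (chr17:47737037-47792416), the transcription factor known to raise lysosomal genes, had an estimate above 0 where most members were below it. It read 7.996, 8.24 and 8.35 in untreated replicates 1 to 3, 8.26, 8.32 and 8.39 at 20 min, 8.05, 8.52 and 8.35 at 2 h, and 8.23, 8.53 and 8.56 at 4 h. Each replicate was higher at 4 h than untreated, by 0.24, 0.29 and 0.21, while the groups overlapped because replicate 1 was low throughout. It was the single member that was higher in 3 of 3 replicates at 4 h. The limma change was 0.24 ± 0.08 (95% interval 0.08 to 0.41) and did not pass, with adjusted p = 0.108. Its relatives Tfe3 and Mitf had changes of 0.11 ± 0.07 and 0.15 ± 0.08 and did not pass either (limma, adjusted p = 0.492 and 0.4). The remaining relative, Tfec, had a change of -0.31 ± 0.10, below 0 in each replicate (limma, not called, adjusted p = 0.0969).

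At 20 min and 2 h no member passed the test, and neither did any other probe set (0% called in both comparisons). The unadjusted p was under 0.05 for 16 members at 20 min (48.5%) and for 9 members at 2 h (27.3%), all of them lower. In either direction it was so for 8.46% and 6.28% of all probe sets, and for 12.6% and 9.61% of those at or above the median signal. The lowest limma adjusted p of a member was 0.391 at 20 min, for Ctso, and 0.409 at 2 h, for Hexa. The median log2 change of the members was -0.14 at 20 min and -0.08 at 2 h, against 0.00 and 0.01 over all tested probe sets and -0.03 and -0.01 over those at or above the median signal. At 20 min 23 members were lower in 3 of 3 replicates (69.7%, against 17.1% of all probe sets and 25% of those at or above the median signal), and at 2 h 18 were (54.5%, against 11.4% and 15.1%). Of the hepatocyte markers, 62.5% were lower in 3 of 3 replicates at 20 min and 31.2% at 2 h. These comparisons and the one at 4 h share the untreated arrays, so they are not independent of each other.

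The 4 h arrays were also set against the other treated arrays. No member passed between 20 min and 4 h (0.62% of all probe sets did) or between 2 h and 4 h (0.078%). The unadjusted p was under 0.05 for 3 members in each of the comparisons, against 9.78% and 8.83% of all probe sets. From 20 min to 4 h the median log2 change of the members was -0.01. In that interval 7 were lower in 3 of 3 replicates (21.2%, against 13.6% of all probe sets and 15.1% of those at or above the median signal). From 2 h to 4 h the median was -0.05, and 24 estimates were below 0 and 9 above. In this interval 13 members were lower in 3 of 3 replicates (39.4%, against 15.1% and 18.3%). Over the 4 times together, limma's F-test called no member, with a lowest adjusted p of 0.0539 for Ctso and 11 members under an unadjusted p of 0.05, while 1.4% of all probe sets were called and 12.1% were under an unadjusted p of 0.05.

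The genes named as macrophage-rich, from background knowledge, were Ctss, Ctsc, Ctsk, Ctsz and Atp6v0d2. Of these 5, Atp6v0d2 fell at 4 h and the others did not pass; the median log2 change was -0.06, against -0.15 for the other 28 members. Cathepsin S (Ctss, chr3:95526786-95556405), which processes the invariant chain in antigen-presenting cells, read 6.83, 6.82 and 6.89 in untreated replicates 1 to 3, 7.04, 6.94 and 6.79 at 20 min, 6.77, 6.72 and 6.88 at 2 h, and 6.73, 6.68 and 6.81 at 4 h. All 4 h arrays lay below all untreated arrays, but by little, and the limma change was -0.11 ± 0.07 (95% interval -0.27 to 0.06, adjusted p = 0.528). Its signal was below the median of all tested probe sets on every array.

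Cathepsin C (Ctsc, chr7:88278024-88315861), which activates granule proteases of immune cells, read 9.47, 10.24 and 10.38 in untreated replicates 1 to 3, 9.71, 10.22 and 10.37 at 20 min, 9.13, 10.56 and 10.38 at 2 h, and 9.38, 10.66 and 10.53 at 4 h. Replicate 1 was lower than the others at every time by more than any change from untreated, and the limma change at 4 h was 0.16 ± 0.14 (adjusted p = 0.644). Cathepsin K (Ctsk, chr3:95499210-95509387), the collagen-degrading protease of osteoclasts, lies next to Ctss on the chromosome. It read 6.59, 6.51 and 6.55 untreated, 6.48, 6.19 and 6.32 at 20 min, 6.46, 6.45 and 6.43 at 2 h, and 6.47, 6.51 and 6.48 at 4 h. The 20 min and 2 h arrays lay below all untreated arrays and the 4 h arrays overlapped them, with a limma change of -0.06 ± 0.07 at 4 h. Cathepsin Z (Ctsz, chr2:174427494-174439039), a carboxypeptidase, read 12.58, 12.50 and 12.49 untreated, 12.54, 12.45 and 12.37 at 20 min, 12.59, 12.56 and 12.38 at 2 h, and 12.55, 12.49 and 12.42 at 4 h. Its groups overlapped at all times, and its limma change at 4 h was -0.03 ± 0.06.

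Markers of macrophages moved over the same arrays. Of 22 macrophage markers, 11 fell and 0 rose at 4 h, with a median log2 change of -0.36 after -0.06 at 20 min and -0.20 at 2 h. The 4 with the largest changes were Cybb (-0.96), a subunit of the phagocyte NADPH oxidase, Fcer1g (-0.85), the common Fc receptor γ chain, Lyz2 (-0.82), a lysozyme, and C1qb (-0.74), a complement component. Their summed linear signal was 13403 to 15126 in untreated arrays, 12020 to 13072 at 20 min, 11867 to 12430 at 2 h and 10273 to 12219 at 4 h. Cd14 and Cd68 made up 67.3% to 79.6% of that sum, and the other 20 markers together gave 3311 to 3844 in untreated arrays, 3132 to 3927 at 20 min, 2734 to 3144 at 2 h and 2492 to 2533 at 4 h. Between 20 min and 4 h, 7 of these 22 fell with a median of -0.32, whereas the lysosomal members had a median of -0.01 over that interval and no calls. The 5 macrophage-rich members had a median of 0.03 over it, with 2 estimates below 0 and 3 above. Among them Ctss changed by -0.19 and Ctsk by 0.16 (limma, unadjusted p = 0.0276 and 0.0385). The part of the macrophage RNA in the changes of the lysosomal genes was not tested.

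Hepatocyte markers moved less. Of 16 measured, 3 fell at 4 h and 0 rose, with a median log2 change of -0.13 at 4 h, -0.08 at 20 min and -0.04 at 2 h. The 3 were Tdo2 (-0.53), which opens tryptophan catabolism, Hpd (-0.38) and Tat (-0.31), enzymes of tyrosine catabolism. Their summed linear signal was 188872 to 202405 in untreated arrays and 177202 to 191974 at 4 h. Of 8 sinusoidal endothelial markers, Lyve1 (-0.37) and Fcgr2b (-0.33) fell, and none of the 8 stellate cell or 4 cholangiocyte markers was called.

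**Figure D3:**
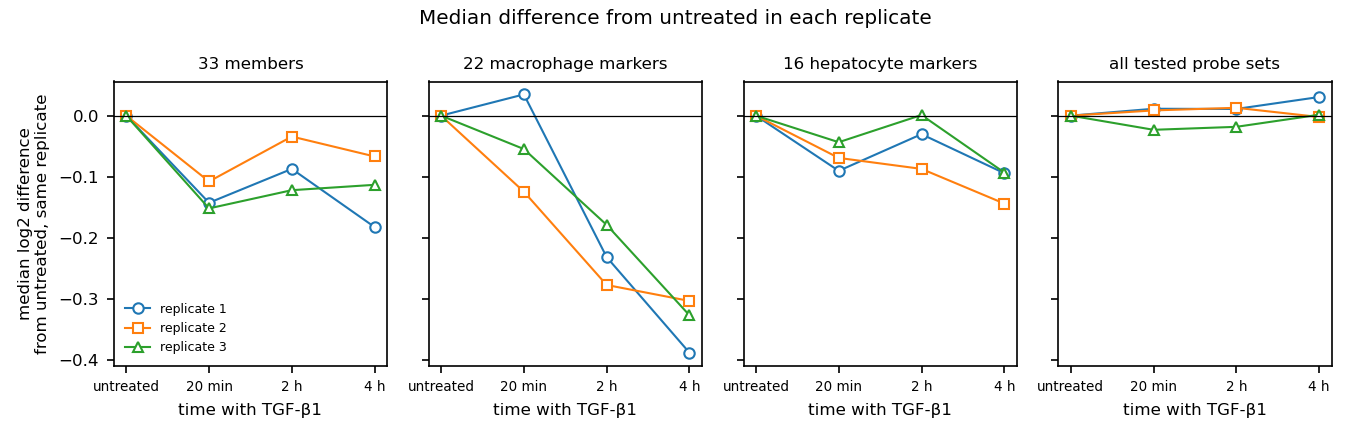
Median log2 difference from the untreated array of the same replicate (y axis) against time with TGF-β1 for the 33 lysosomal genes, 22 macrophage markers, 16 hepatocyte markers and all 21789 tested probe sets, 1 line per replicate; all differences share the untreated arrays. The lysosomal genes lie between -0.18 and -0.03 at the 3 times, and the macrophage markers between -0.39 and -0.30 at 4 h.

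The replicates differed from each other for most of these genes. The study reports a strong batch effect in its mouse hepatocyte chips and adjusted for it. The deposited values used here are described as RMA signals. The batches are not named, so differences between replicates and between batches cannot be told apart. Averaged over the 4 times, 25 of the 33 members had their highest log2 signal in replicate 1 (75.8%, against 49.4% of all tested probe sets) and the other 8 their lowest. The median of the members, each centred on its own mean, stood at 0.12 for replicate 1, with -0.04 and -0.08 for the other two. Ctsa and Idua stood 0.37 and 0.34 above their own means in replicate 1. The widest range between replicates belonged to Ctsc, which stood at -0.66, 0.34 and 0.33, and to Atp6v0d2, at -0.54, 0.24 and 0.30. Gusb (-0.30), Tfeb (-0.18) and Npc1 (-0.11) were also low in replicate 1.

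These replicate profiles did not separate macrophage-rich from hepatocyte-wide genes. The median profile of the macrophage markers was 0.03, -0.03 and -0.02 in replicates 1, 2 and 3, and that of the hepatocyte markers was 0.05, -0.05 and 0.00. By distance, 13 members lay nearer to the macrophage profile and 20 nearer to the hepatocyte profile, but the profiles differed too little for this to sort the genes. Ctss and Ctsk lay nearer to the hepatocyte profile and Ctsc, Ctsz and Atp6v0d2 nearer to the macrophage profile.

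**Figure D4:**
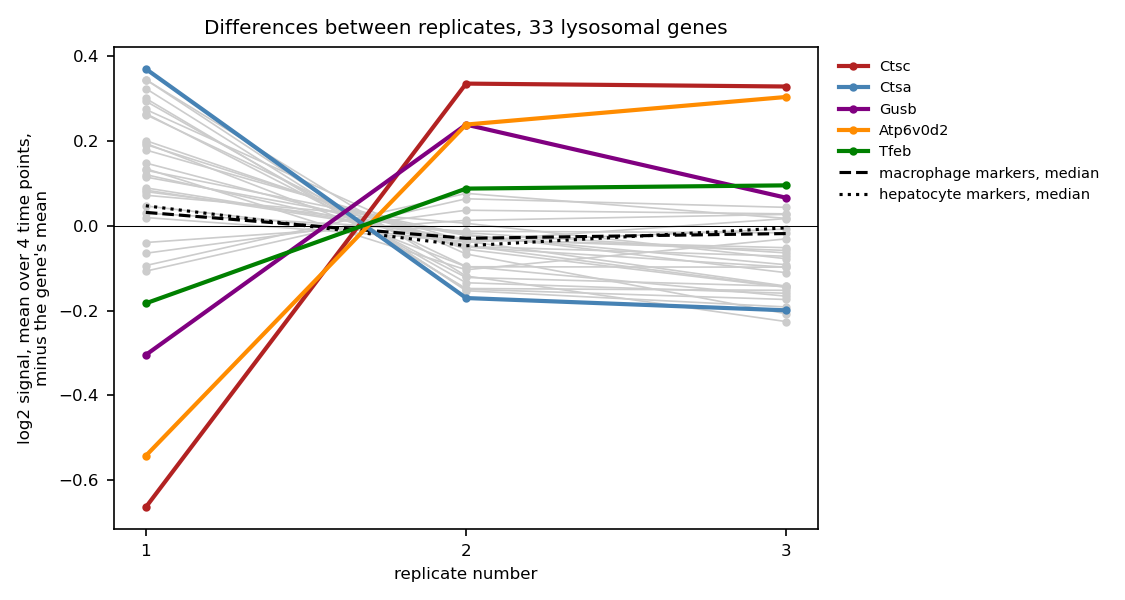
Log2 signal of each of the 33 genes averaged over the 4 times in each replicate and centred on the gene's own mean (y axis) against replicate number (a name, with no order); black lines are the medians of the marker lists. Grey lines mostly run from high in replicate 1 to low in replicates 2 and 3, and Ctsc and Atp6v0d2 run the other way, from -0.66 and -0.54 in replicate 1.

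Other genes of the lysosome were described from wider lists. Of 72 measured among 81 listed, 4 fell (5.56%, against 3.02% of all probe sets and 5.43% of those at or above the median signal) and 0 rose at 4 h, with a median log2 change of -0.07. The 4 were Lgmn (-0.37), the asparaginyl endopeptidase that cuts cathepsin precursors, Ostm1 (-0.31), the partner of a lysosomal chloride channel, Acp5 (-0.31), tartrate-resistant acid phosphatase, and Man2b1 (-0.31), lysosomal α-mannosidase. By list, 3 of 24 other hydrolases and activators and 1 of 18 other membrane proteins fell. None of 15 further V-ATPase subunits, 15 sorting receptors and regulators and 4 cathepsin inhibitors passed. The unadjusted p was under 0.05 for 2, 6 and 0 of them (13.3%, 40% and 0%). It was so for 9 of the 24 other hydrolases and activators (37.5%) and 7 of the 18 other membrane proteins (38.9%). Over the 72 genes it was so for 24 (33.3%), against 17% of all probe sets and 27.6% of those at or above the median signal. The median of the further V-ATPase subunits was 0.00, against -0.16 for the 7 members.

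Promoter sequence was examined because many lysosomal genes are known to carry an E-box variant bound by TFEB and its relatives. Whether that element bears on the changes described here was not tested. RefSeq promoter windows (GRCm38.p6, 250 bases before to 50 after each start) were matched by symbol for 27 of the 33 genes, and Ctsb, Ctsh, Npc1, Atp6v0d2, Atp6v1b2 and Atp6v1h had none. The E-box core CACGTG, a palindrome that reads the same on both strands, was present in 11 of 27 members (40.74%), in 22.22% of the other lysosomal genes with a window and in 8.093% of all genes with a window. The longer form TCACGTGA, which contains that core and is therefore a subset of it, was present in 6 of 27 members (22.22%), in 9.524% of the other lysosomal genes and in 1.125% of all genes. A match is a description of the letters and not evidence of binding.

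The following stretches show the E-box core in capitals, read 5′ to 3′ on the strand of the gene. They are a selection from the 11 members with the core. The members shown had log2 changes at 4 h from -0.29 (Gla) to -0.08 (Lamp1). Stretches of Ctsl, Gaa, Glb1, Mcoln1 and Atp6v0d1 also held the core and are not shown. Their changes at 4 h were -0.05, -0.20, -0.20, -0.12 and -0.10.
Lamp1, chr8:13159088-13159117, plus strand, first base 61 bases before the start: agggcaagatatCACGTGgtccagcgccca
Lamp1, chr8:13159121-13159150, plus strand, first base 28 bases before the start: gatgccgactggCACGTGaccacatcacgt
Ctsd, chr7:142387908-142387937, minus strand, first base 98 bases before the start: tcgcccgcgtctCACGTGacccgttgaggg
Ctsa, chr2:164833749-164833778, plus strand, first base 12 bases before the start: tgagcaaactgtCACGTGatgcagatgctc
Gla, chrX:134601182-134601211, minus strand, first base 194 bases before the start: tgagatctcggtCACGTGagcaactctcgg
Atp6v1a, chr16:44139373-44139402, minus strand, first base 131 bases before the start: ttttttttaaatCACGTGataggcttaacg
Ctsf, chr19:4855074-4855103, plus strand, first base 79 bases before the start: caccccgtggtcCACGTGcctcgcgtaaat

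The first base counted is that of the core, and the start is that of the window. Ctsa had 2 windows, and 1 of them held the core. The stretches of Ctsa and Atp6v1a lie inside the spans of their genes (chr2:164832872-164841032 and chr16:44085402-44139702), so their starts are internal ones. The stretches of Ctsd, Ctsa, Gla and Atp6v1a hold the longer form, and those of Lamp1 and Ctsf do not. Lamp1 held 4 copies of the core in its window, and Gla, Ctsa, Ctsd and Mcoln1 held 2 each. The 11 members with the core had a median log2 change of -0.20 at 4 h (range -0.29 to -0.05), and the 16 with a window but no core had a median of -0.07 (range -0.42 to 0.24). Ctso, the member with the smallest adjusted p, was among those without the core, as was Tfeb. The other members called lower at 4 h, Ctsh, Npc1 and Atp6v0d2, had no window and are in neither group. No called member was therefore among those with the core, and a relation between core and change was not tested.

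A second motif, GAGGAAGT, of the kind bound by the macrophage factor PU.1, was searched on both strands because of the macrophage-rich genes. It was present in 4 of 27 members (14.81%), in 0 of 63 other lysosomal genes and in 3.689% of all genes, and is a different sequence from the E-box core. The 4 were Ctsc, Ctss, Gla and Gusb. The stretches of both cathepsins are shown, with the motif in capitals, which reads ACTTCCTC on the strand of the gene.
Ctsc, chr7:88277923-88277952, plus strand, first base 151 bases before the start: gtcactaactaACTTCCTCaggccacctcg
Ctss, chr3:95526773-95526802, plus strand, first base 2 bases before the start: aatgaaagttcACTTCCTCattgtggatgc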

How the data were processed

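Mouse Gene 1.0 ST arrays of mouse hepatocytes, 3 for each of 4 groups and 12 in all, were grouped by their labels. According to the submitters' processing notes, the deposited log2 signals came from RMA as run by Affymetrix Power Tools, without a version, although the methods of the study describe FARMS summarisation and ComBat batch adjustment; the 1 h time point was not analysed here. Of 35556 probe sets, 21789 had exactly 1 symbol, 1621 had several and 12146 were not listed, and those of the last 2 kinds were left out. Symbols were updated through Entrez identifiers. No filter on low signal was used.

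limma 3.58.1 in R 4.3.3 was fitted to all 21789 probe sets with factors for time and replicate number (degrees of freedom: 6 residual, 5.39 prior), and p-values were adjusted by Benjamini-Hochberg over all of them. Changes are differences on the log2 scale with SE and 95% intervals. The replicate factor follows the methods of the study, whose text calls the replicates biological. Deviations from the group means correlated at 0.56 to 0.88 for each of 18 pairs of arrays with the same number, and at -0.81 to 0.72 for 36 pairs with different numbers. Replicate 1 stood apart (r of -0.81 to -0.66 with the others), whereas arrays of replicates 2 and 3 correlated at 0.54 to 0.72 with each other, so the numbers did not separate these replicates. The same-number correlations were all above 0.1, the limit set for pairing. Deviations from a group mean cancel out within the group, so an outlying replicate 1 alone makes replicates 2 and 3 correlate. The limit therefore cannot show whether replicates 2 and 3 were paired by number. The pairs counted for the members are arrays matched by that number.

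The members and the gene lists were chosen with earlier results of these data known. All 33 members are accounted for; values of every array are given for members called at 4 h, the macrophage-rich genes, Tfeb, Lamp1 and Ctsd, and up to 4 called genes with the largest change are named for each other list. Array values hold no counts, so the number of arrays limits the precision. The fit was tested on simulated data with known changes, all larger than any change of a member, so that test does not describe calls of the size seen here. Alternatives covered the replicate factor, probe set filters, normalization, the prior, array weights, the arrays fitted together and each replicate left out. Leaving out single arrays, the median of the members under each alternative, the sign of every member without each replicate number and the macrophage sum without its 2 brightest markers were added after seeing the data.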

Additional observations from a re-analysis of the deposited data

How the results depend on the processing

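The calls changed with the replicate block, the probe sets tested and the arrays fitted. With the block 4 members were called lower at 4 h, against 0 without it and 1 (Ctso) with the block as a random effect. Over all 35556 probe sets 1 (Ctso) was called, and 0 when the compared groups were fitted alone. When a replicate number or a single array was left out, 0 to 2 were called. More were called among probe sets at or above the median signal (5), with a trended robust prior (5), with the mean of a gene's probe sets (5) and with array weights (6); Ctsa was called in 6 of 19 alternatives and Ctsf in 2. Calls over all probe sets at 4 h went from 1000 to 31 without the block, 225 with the random block, 371 over all probe sets, 352 with the compared groups alone, 1799 with array weights, 101 without replicate 2 and 32 without replicate 3. With array weights 1 member, Tfeb, was called higher at 4 h. Over the time course, where no member was called, 1 was called among probe sets at or above the median signal, 1 after quantile normalization, 2 with a trended robust prior, 4 with array weights and 1 with the mean of a gene's probe sets. Ctso stayed past the threshold in 14 of 19 alternatives (adjusted p from 0.00144 to 0.171), Ctsh in 7 of 19, Npc1 in 6 of 19 and Atp6v0d2 in 5 of 18. The median log2 change of the members at 4 h was between -0.18 and -0.10 in 18 alternatives, within the spread between replicates (SD 0.06). None of the 11 genes followed through every alternative changed sign. Of all 33, Lipa (0.05 without replicate 1), Scarb2 (-0.04 without replicate 2) and Gusb (0.01 without replicate 3) changed sign when a replicate number was left out. Ctsk, Ctss and Atp6v0d2 had no value in the set at or above the median signal, and no time course value exists for the compared groups alone. The causes of these differences were not tested.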
